A study of Homo sapiens with 27 samples.

Results

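The replication-dependent histone genes are the clustered genes that encode the linker histone H1 and the core histones H2A, H2B, H3 and H4 used to package newly copied DNA. They were followed here in 3 human acute myeloid leukaemia cell lines in which short hairpin RNAs had knocked down CARM1 (PRMT4), an enzyme that methylates arginines of histone H3 and of proteins that activate transcription. The members were taken by symbol: every row named HIST1 to HIST4 with a class of H1, H2A, H2B, H3 or H4, leaving out the symbols that end in PS and a number. That gave 76 of the 57992 genes in the table, with 6 in class H1, 17 in H2A, 23 in H2B, 15 in H3 and 15 in H4. By cluster, 55 were HIST1 genes, 16 HIST2, 4 HIST3 and 1 HIST4. A gene annotation (GENCODE 29) placed 55 on chromosome 6, 19 on chromosome 1 and 1 on chromosome 12, and called 70 of them protein-coding. It called HIST2H2BA, HIST2H2BB, HIST2H2BD, HIST3H2BA and HIST2H3DP1 pseudogenes and had no entry for HIST2H2BC. The rule reads symbols and no measured value.

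The 9 groups held 3 libraries each: CARM1 hairpin 1, CARM1 hairpin 2 and a scramble hairpin, in MOLM13, MV411 and SKNO1. Every cell had been transduced with a lentivirus that expresses a short hairpin RNA all the time, so the scramble libraries carry a virus and a hairpin as well, and RNA was taken on day 3 after transduction. MOLM13 and MV411 carry KMT2A fusions and SKNO1 carries RUNX1-RUNX1T1, and SKNO1 was grown with 10 ng/mL GM-CSF, a cytokine that the labels give for that line alone, so a difference between lines cannot be told apart from its medium. Total RNA was depleted of ribosomal RNA and sequenced without selection for polyadenylated RNA. The labels do not say that replicates were separate transductions, so p-values measure the spread between these libraries, which may be technical.

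Replication-dependent histone genes have no introns, and most of their mRNAs end in a conserved stem-loop in place of a poly(A) tail. The stem-loop binding protein SLBP, with the U7 small nuclear ribonucleoprotein and the coactivator NPAT, makes and processes these mRNAs in nuclear histone locus bodies. The genes are transcribed mainly in S phase, when DNA is copied, and their mRNAs are degraded when replication stops. A low level of histone mRNA in a culture can come from fewer cells in S phase or from less RNA in each cell, and bulk libraries cannot tell these apart.

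The stem-loop is shown first because it is the feature that sets these mRNAs apart, and its letters differ among the members described below. The 16-base histone stem-loop was found in the GENCODE 29 transcripts of 32 of the 74 members that have a single-exon transcript there, and a transcript without it may simply be annotated as ending before it. The matches had 5 forms, of which the most frequent was in 17 members. The examples below are on GRCh38, at chr6:26217412-26217437 (plus strand) for HIST1H2AE, chr6:27133510-27133535 (plus) for HIST1H2AG, chr6:26123467-26123492 (minus) for HIST1H2BC, chr1:149833027-149833052 (plus) for HIST2H4A and chr12:14770719-14770744 (minus) for HIST4H4, each in a single-exon transcript. Capitals mark the 16 bases of the stem-loop, and the rest is 5 bases on each side.
HIST1H2AE: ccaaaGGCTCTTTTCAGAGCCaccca
HIST1H2AG: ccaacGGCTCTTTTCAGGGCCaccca
HIST1H2BC: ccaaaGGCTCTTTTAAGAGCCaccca
HIST2H4A: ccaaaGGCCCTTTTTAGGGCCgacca
HIST4H4: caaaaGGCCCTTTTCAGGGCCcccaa
The form of HIST1H2AE was the one shared by 17 members. HIST1H2BC shared its form with HIST1H2BD, HIST1H2BF, HIST1H3G and HIST3H3. HIST4H4, one of the members described below as passing with few or none of the hairpins, had the same 16 bases as HIST1H4B, HIST1H4E, HIST1H4H and HIST1H4J, of which HIST1H4B, HIST1H4H and HIST1H4J fell in MOLM13 and MV411 and HIST1H4E missed the threshold in MOLM13 with both hairpins (log2 fold changes -1.17, adjusted p = 0.0628, and -1.06, adjusted p = 0.0683, by the test described below). The form of HIST2H4A was also in HIST2H4B and HIST1H4I, and that of HIST1H2AG in the pseudogene HIST2H2BD.

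Promoters were compared over the 250 bases before each gene's start in RefSeq (GRCh38.p14), where 75 members matched by position and older symbol and 65 had an entry. Letters were searched on both strands. Of the 65 promoters, 84.6% held the letters CCAAT, against 33.0% of 27305 RefSeq promoters. The TATA box, searched as TATAA, was in 92.3%, against 19.6% of all. The CCAAT box was in every H1, H2A, H2B and H3 promoter searched and in 3 of 13 H4 promoters. The octamer ATTTGCAT was in 11 of 16 H2A and 14 of 18 H2B promoters, in 1 of 12 H3 promoters and in none of the 6 H1 and 13 H4 promoters, against 1.66% of all promoters. The H1 box, AAACACA, was in all 6 H1 promoters and in none of the other classes, against 4.95% of all promoters. The 1 H3 promoter with the octamer was that of HIST1H3D, and its window was the same as that of the H2A gene HIST1H2AD. Those bases were thus counted in both classes, and the GENCODE gene of HIST1H3D, at chr6:26196840-26197250, does not reach them. Head-to-head neighbours share the bases between their starts, so the promoters of such H2A and H2B pairs overlap and are not independent. A match describes the letters in the window and not a bound site.

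The promoters printed here belong to members that the results single out, with 1 for the H1 box: HIST1H2BB, HIST1H3C and HIST1H4F were near 0 in MOLM13, HIST3H2BB was near 0 in SKNO1, HIST1H2BJ was called with both hairpins in SKNO1, and HIST1H1B stands for the H1 promoters, all of which held the H1 box. Each is the 200 bases before the RefSeq start, at chr6:26043714-26043913 (minus strand), chr6:26045184-26045383 (plus), chr6:26240193-26240392 (plus), chr1:228457903-228458102 (plus), chr6:27132796-27132995 (minus) and chr6:27867589-27867788 (minus) of GRCh38.p14. Capitals mark the motifs searched on either strand, so CCAAT on the other strand reads ATTGG, and TATAA matches that overlap on opposite strands run together in HIST1H1B.
HIST1H2BB: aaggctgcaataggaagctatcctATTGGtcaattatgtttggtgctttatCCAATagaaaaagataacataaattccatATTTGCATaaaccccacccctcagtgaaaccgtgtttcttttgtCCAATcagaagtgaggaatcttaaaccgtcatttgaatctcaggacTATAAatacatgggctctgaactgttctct
HIST1H3C: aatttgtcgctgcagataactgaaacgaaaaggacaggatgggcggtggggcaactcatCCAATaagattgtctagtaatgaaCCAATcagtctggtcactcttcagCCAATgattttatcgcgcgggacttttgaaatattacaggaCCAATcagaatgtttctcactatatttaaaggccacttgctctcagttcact
HIST1H4F: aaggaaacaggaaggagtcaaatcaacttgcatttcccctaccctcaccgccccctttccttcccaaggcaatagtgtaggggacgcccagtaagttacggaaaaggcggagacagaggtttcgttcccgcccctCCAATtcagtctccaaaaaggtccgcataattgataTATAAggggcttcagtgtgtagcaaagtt
HIST3H2BB: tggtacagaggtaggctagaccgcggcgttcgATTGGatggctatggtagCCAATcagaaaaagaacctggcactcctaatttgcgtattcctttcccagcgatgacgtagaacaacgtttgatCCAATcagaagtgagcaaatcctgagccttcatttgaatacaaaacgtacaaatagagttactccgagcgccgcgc
HIST1H2BJ: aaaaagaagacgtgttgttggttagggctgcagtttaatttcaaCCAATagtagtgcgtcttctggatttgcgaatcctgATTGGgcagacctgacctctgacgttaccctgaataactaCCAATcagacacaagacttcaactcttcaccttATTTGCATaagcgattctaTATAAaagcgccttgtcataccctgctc
HIST1H1B: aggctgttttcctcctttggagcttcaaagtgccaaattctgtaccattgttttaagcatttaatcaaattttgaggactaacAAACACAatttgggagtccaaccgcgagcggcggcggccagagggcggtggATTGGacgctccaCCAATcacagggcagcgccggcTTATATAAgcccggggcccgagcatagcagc
HIST1H2BB, HIST1H3C and HIST1H4F each held CCAAT within these bases, and their RNA was near 0 in MOLM13. HIST1H2BJ held 3 CCAAT matches, the octamer and TATAA.

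The libraries held 25063577 to 53291599 expected counts each, and the members took 0.120% to 1.06% of them. No hairpin library reached the CARM1 level of a scramble library of the same line, with 2.86, 5.84 and 5.57 CPM (read counts relative to the TMM-scaled library size) for hairpin 1 and 4.90, 4.30 and 2.81 CPM for hairpin 2 in MOLM13, against 20.1, 28.3 and 24.997 CPM with scramble. In MV411 it had 5.80, 6.25 and 6.27 CPM with hairpin 1 and 2.71, 3.75 and 2.63 CPM with hairpin 2, against 22.96, 22.9 and 24.01 CPM. In SKNO1 it had 8.20, 5.69 and 8.74 CPM with hairpin 1 and 2.77, 2.68 and 2.86 CPM with hairpin 2, against 16.2, 17.1 and 19.9 CPM with scramble, so hairpin 1 left more CARM1 there (log2 fold change -1.25, against -2.70 with hairpin 2). Hairpin 1 also left more CARM1 than hairpin 2 in MV411. Myeloid markers fitted the labels: CD33 and SPI1 were detected in every group, and RUNX1T1, part of the SKNO1 fusion, averaged 67.1 to 108 CPM in SKNO1 and at most 0.0452 CPM in MOLM13 and MV411. Of 6 markers of other cell types, 5 (CD3E, MS4A1, EPCAM, COL1A1 and ALB) averaged at most 0.297 CPM in any group. The other, PECAM1, which myeloid cells also express, made up nearly all of a sum of 99.2 to 278 CPM in the MOLM13 hairpin libraries, against 53.65 to 109 CPM with scramble, of 35.2 to 122 CPM against 40.2 to 51.2 CPM in MV411, and of 3.28 to 11.2 CPM against 5.46 to 9.58 CPM in SKNO1. The part of that shift in the results was not tested.

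One scramble library of each line stood apart on the histone genes. Relative to the mean of its line's scramble libraries, the median member differed by -0.90 on the log2 scale in MOLM13 scramble replicate 1, by -0.75 in MV411 scramble replicate 2 and by 0.55 in SKNO1 scramble replicate 2. Counts below are therefore given with the libraries without which they move by more than 1.5 times. Scaling by library size alone, in place of TMM, moves the median of all genes by -0.12 to -0.25 for each hairpin against scramble and by 0.47 and 0.38 for SKNO1 scramble against MOLM13 and against MV411, and changes are given relative to the TMM scale.

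In MOLM13 and MV411 the summed histone mRNA of the knockdown libraries was 26.7% to 31.1% of the scramble mean, with either hairpin. In SKNO1 it was 62.8% of the scramble mean with hairpin 2 and 104.7% with hairpin 1. The sum over the 76 members was 1577, 2357 and 2307 CPM with hairpin 1 and 2784, 2440.0 and 1635 CPM with hairpin 2 in MOLM13, against 3449, 7832 and 10800.0 CPM with scramble. Every MOLM13 hairpin library lay under every scramble library, and the scramble libraries spread by over 3 times. In MV411 the sums were 1737, 1459 and 1710.0 CPM with hairpin 1 and 2209, 1185 and 1584 CPM with hairpin 2, against 8211, 3342 and 6841 CPM with scramble, again without overlap. In SKNO1 they were 4673, 5522 and 6243 CPM with hairpin 1 and 3059, 3296 and 3501 CPM with hairpin 2, against 3896, 7349 and 4456 CPM with scramble. All 3 hairpin 2 libraries were under the lowest SKNO1 scramble library, while the hairpin 1 libraries lay inside the scramble range. As means ± SD (n = 3 each), the MOLM13 sums were 2080 ± 436.6 CPM with hairpin 1 and 2286 ± 589.7 CPM with hairpin 2, against 7360 ± 3698 CPM; the MV411 sums were 1635 ± 153 and 1659 ± 516 CPM, against 6131 ± 2511 CPM; and the SKNO1 sums were 5479 ± 786 and 3285 ± 221 CPM, against 5234 ± 1853 CPM.

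**Figure D1:**
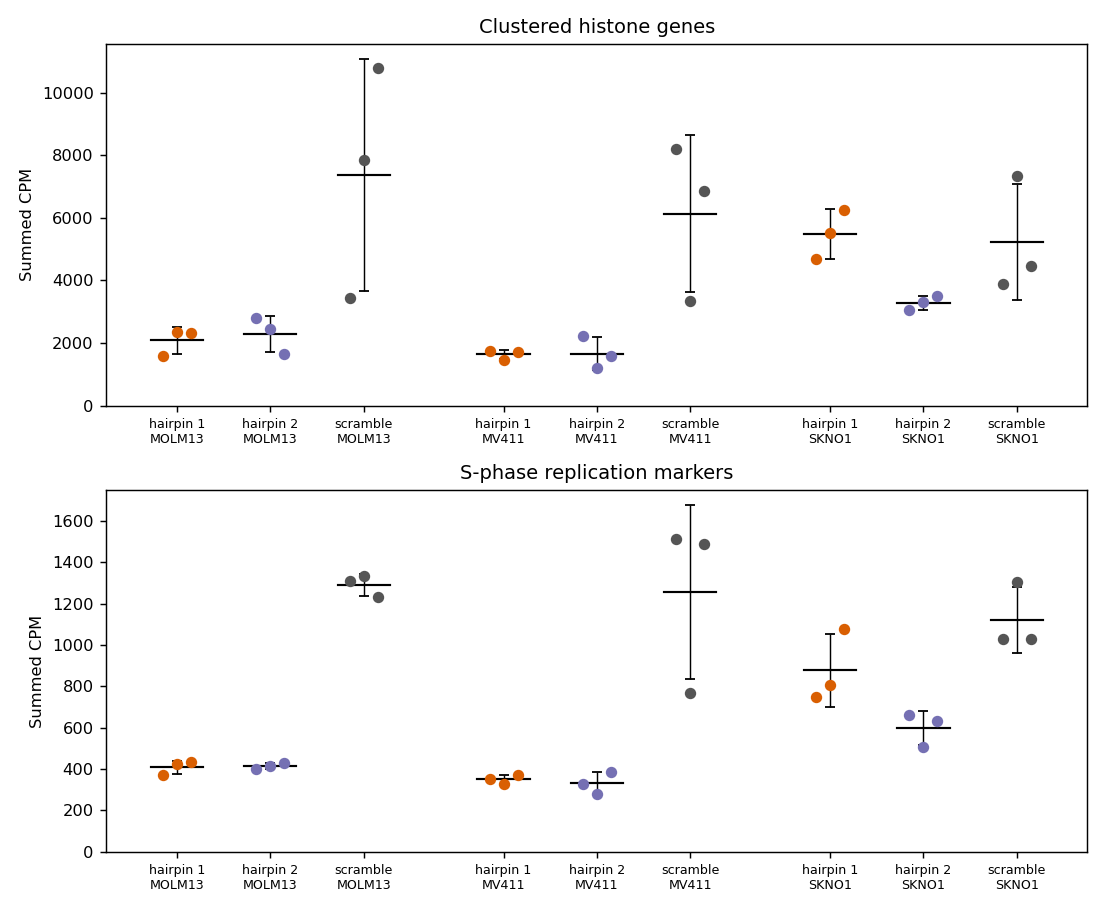
Summed CPM of the 76 histone genes and of 15 S-phase replication genes in each library, by line and group, with a bar at each group's mean. In MOLM13 and MV411 both sums were lower in every hairpin library than in every scramble library, and in SKNO1 the histone sum of hairpin 1 lay inside the range of the scramble libraries, 3896 to 7349 CPM.

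Genes of S-phase DNA replication moved beside the histone genes. A list of 15 of them (the MCM2 to MCM7 helicase subunits, PCNA, CDC45, CDC6, GINS2, RRM2, TYMS, TK1, UNG and FEN1) summed to 373, 423 and 432 CPM with hairpin 1 and 398, 416 and 429 CPM with hairpin 2 in MOLM13, against 1310.0, 1334 and 1233 CPM with scramble. The MOLM13 scramble libraries thus spread little on this list while they spread by over 3 times on the histone genes. The MV411 sums were 351, 326 and 373 CPM with hairpin 1 and 329, 282 and 388 CPM with hairpin 2, against 1513, 769 and 1488 CPM with scramble. The SKNO1 sums were 750.2, 806 and 1077 CPM with hairpin 1 and 662, 505 and 631 CPM with hairpin 2, against 1028, 1305 and 1027 CPM with scramble. As a share of the scramble mean they were 31.7% with hairpin 1 and 32.1% with hairpin 2 in MOLM13, 27.8% and 26.5% for the same hairpins in MV411, and 78.4% and 53.5% in SKNO1. Of the 15 genes, edgeR's test called 14 lower with each hairpin in the MOLM13 and MV411 lines, and 13 with hairpin 2 in SKNO1. With SKNO1 hairpin 1 none passed by edgeR, 4 were lower at an unadjusted p under 0.05, DESeq2 called 1, and the median was -0.35. The part of the S-phase genes in the histone results was not tested.

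In MOLM13, 62 of the 76 members had enough counts to be tested. Of these, 42 were lower with hairpin 1 and 37 with hairpin 2 (edgeR's quasi-likelihood test, adjusted p under 0.05 over all genes), where 4.25% and 6.03% of all genes tested were lower, and the mean of both hairpins, given below as the knockdown, had 53 lower, where 8.27% were. The hairpins share their scramble libraries, so these counts do not support one another. No member was higher with either hairpin or the knockdown, by edgeR at an unadjusted p under 0.05 (0 members) or by DESeq2 (0), where 2.13%, 3.39% and 5.23% of all genes tested were. The median log2 fold change of the members was -1.85 with hairpin 1 and -1.65 with hairpin 2, against 0.01 and 0.07 over all genes tested. The count for hairpin 1 was 16 without scramble replicate 2, 12 without scramble replicate 3, and 15, 13 and 16 without hairpin 1 replicates 1, 2 and 3. For hairpin 2 it was 11 and 10 without scramble replicates 2 and 3, and 18 and 19 without hairpin 2 replicates 2 and 3. For the knockdown it was 35 and 34 without scramble replicates 2 and 3. Without the outlying scramble replicate 1 the counts were 52, 49 and 56 for hairpin 1, hairpin 2 and the knockdown, and with no filter on low counts the count for hairpin 2 was 56.

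In MV411, 69 members were tested, and 54 were lower with hairpin 1 and 59 with hairpin 2, where 4.13% and 10.2% of all genes tested were lower. The knockdown had 60 lower, where 7.29% were. With the replicate number as a block, 7 of the 15 members that had not passed with hairpin 1 passed, in either direction. With hairpin 2, 4 of 10 did. No MV411 call recomputed for a named gene was lost to the block. No member was higher by edgeR, although HIST2H4B was over 0 at an unadjusted p under 0.05 with hairpin 1, as the 1 such member, and DESeq2 called 1 higher there, as did edgeR with the replicate number as a block (HIST2H4B, 0.78, adjusted p = 0.0295). With hairpin 2 and the knockdown that count was 0 by both. HIST2H4B shares its reads with HIST2H4A, and the pair summed to 73.5 CPM with hairpin 1, against 290.3 CPM with scramble. Of all genes tested, 2.37%, 8.38% and 5.06% were higher with hairpin 1, hairpin 2 and the knockdown. The median log2 fold change of the members was -1.93 with hairpin 1 and -2.08 with hairpin 2, against -0.003 and 0.001 over all genes tested.

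In SKNO1, 65 members were tested. With hairpin 1, 1 was lower, HIST1H2BJ, where 0.277% of all genes tested were, and with hairpin 2, 15 were, where 5.69% were. The knockdown had 1 lower, HIST1H2BJ, where 2.06% of all genes were, with a median of -0.32. The median log2 fold change of the members was 0.06 with hairpin 1 and -0.70 with hairpin 2, against -0.02 and 0.00 over all genes tested. With hairpin 2, 47 members were under 0 at an unadjusted p under 0.05, and DESeq2 called 26 lower. With scaling by library size alone 35 were lower, and with no filter on low counts 43. The edgeR count for hairpin 2 was 2 and 7 without scramble replicates 2 and 3, and 2, 2 and 3 without hairpin 2 replicates 1, 2 and 3. HIST1H2BJ was not called with hairpin 1 without scramble replicate 1 or without replicate 3, where its adjusted p was 0.0601 and 0.056. No member was higher by edgeR with either hairpin; HIST1H2AC and HIST2H3A were over 0 at an unadjusted p under 0.05 with hairpin 1 (2 members, 0 by DESeq2), and HIST1H2AC with hairpin 2 (1 member, 1 by DESeq2) and with the knockdown (1 member, 1 by DESeq2). Of all genes tested, 0.255%, 5.54% and 1.88% were higher with hairpin 1, hairpin 2 and the knockdown.

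**Figure D2:**
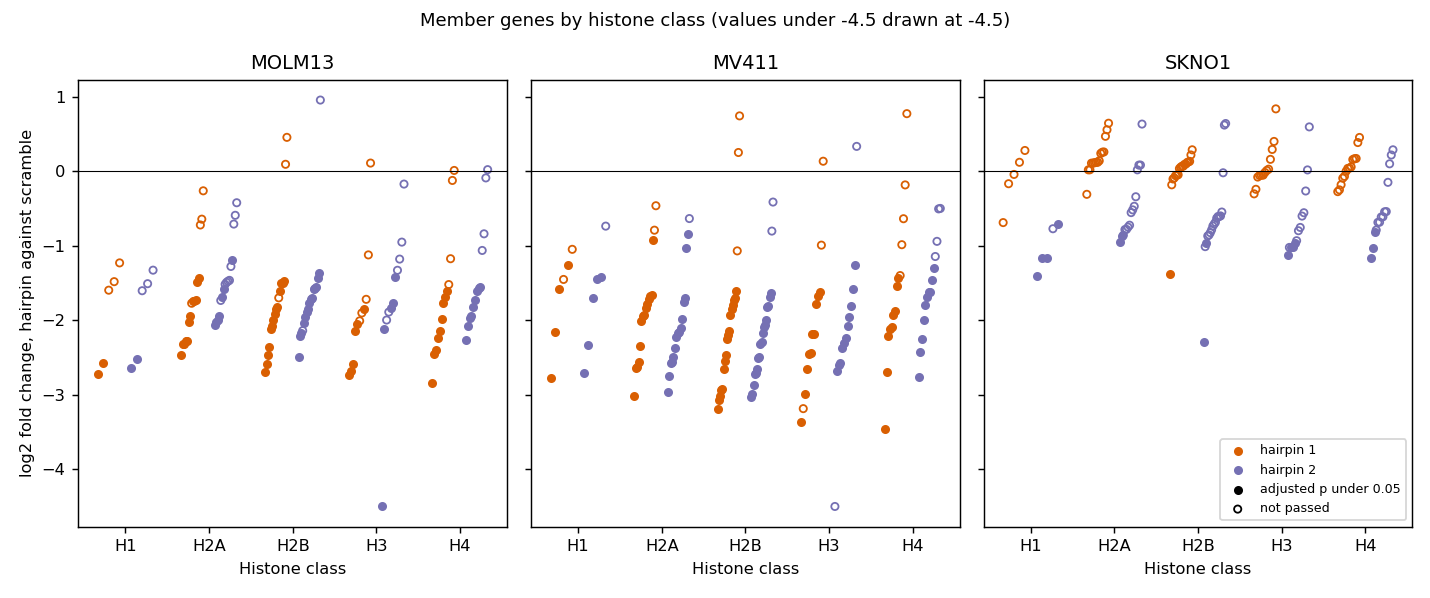
Log2 fold change of each tested member, hairpin against scramble, by histone class and line, with filled points for members that passed the test and values below the axis drawn at its lower edge. All 5 classes lay mostly under 0 in MOLM13 and MV411, and in SKNO1 the hairpin 1 values spread around 0 with HIST1H2BJ at -1.38 as the 1 member that passed.

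Linker histones of class H1 bind the DNA that enters and leaves the nucleosome. In MOLM13, 2 of 5 tested H1 genes were lower with hairpin 1 and 2 with hairpin 2 (medians -1.59 and -1.60), and in MV411 4 and 5 of 6 (-1.51 and -1.57). HIST1H1B, which encodes H1.5, had 39.2, 86.8 and 89.98 CPM with hairpin 1 and 89.4, 81.5 and 48.5 CPM with hairpin 2 in MOLM13, against 183, 381 and 712 CPM with scramble. It fell by 2.57 ± 0.49 (SE; adjusted p = 0.0139) on the log2 scale with hairpin 1 and fell by 2.51 with hairpin 2 (0.0135), with no overlap between hairpin and scramble libraries. In MV411 it had 40.6, 24.6 and 34.7 CPM with hairpin 1 and 39.05, 19.5 and 46.6 CPM with hairpin 2, against 322, 94.3 and 258 CPM with scramble, and the log2 fold changes were -2.77 ± 0.44 (SE; adjusted p = 0.00553) and -2.71 ± 0.44 (SE; adjusted p = 0.00192). The lowest scramble value there, in replicate 2, was still over every hairpin library. HIST1H1D, which encodes H1.3, fell by 2.72 ± 0.63 (SE; adjusted p = 0.032) and fell by 2.64 (0.0298) in MOLM13, and had 15.3, 14.7 and 12.9 CPM with hairpin 1 and 12.5, 8.33 and 17.1 CPM with hairpin 2 in MV411, against 85.3, 38.1 and 65.4 CPM with scramble. HIST1H1C and HIST1H1E, named for their high mean CPM, fell in MV411 with hairpin 1, by log2 fold changes of -1.57 ± 0.29 (SE; adjusted p = 0.00998) and -1.26 ± 0.23 (SE; adjusted p = 0.00966). In MOLM13 neither passed with hairpin 1 (-1.48, adjusted p = 0.0887, and -1.59, adjusted p = 0.0575) or with hairpin 2 (-1.60, adjusted p = 0.0564, and -1.51, adjusted p = 0.0549). Scramble replicate 1 overlapped the hairpin 1 libraries of both genes. The hairpin 2 libraries reached 134 CPM for HIST1H1C and 166 CPM for HIST1H1E. Both were under the lowest scramble library, at 146 and 173 CPM.

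In SKNO1 the H1 genes were the class with the largest share of members lower with hairpin 2, 4 of 5, with a median of -1.16; whether that share differs from the other classes was not tested. HIST1H1D had 98.4, 86.1 and 92.05 CPM with hairpin 1 and 50.1, 44.01 and 44.9 CPM with hairpin 2, against 83.9, 141 and 81.5 CPM with scramble. All 3 hairpin 2 libraries were under all scramble libraries, and the log2 fold change was -1.16 ± 0.22 (SE; adjusted p = 0.0063). HIST1H1B fell by 1.16 ± 0.29 (SE; adjusted p = 0.023) and HIST1H1C fell by 0.70 ± 0.21 (SE; adjusted p = 0.0473) with hairpin 2. HIST1H1A, at under 1 CPM in each SKNO1 library, was also called (-1.40, adjusted p = 0.0352), and HIST1H1E missed the threshold (-0.77, adjusted p = 0.0516).

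H2A pairs with H2B to form the dimers that flank the H3-H4 tetramer of the nucleosome. In MOLM13, 11 and 7 of 16 tested H2A genes were lower with hairpin 1 and hairpin 2 (medians -1.76 and -1.50), and in MV411 14 and 15 of 16 (-1.88 and -2.17). HIST1H2AE had 24.9, 34.1 and 35.2 CPM with hairpin 1 and 32.5, 47.4 and 27.5 CPM with hairpin 2 in MOLM13, against 59.9, 160.5 and 236 CPM with scramble. Even the low scramble replicate 1 was over each hairpin library, and HIST1H2AE fell by 2.28 ± 0.42 (SE; adjusted p = 0.0127) with hairpin 1 and fell by 2.06 with hairpin 2 (0.0164). HIST1H2AK, a low-count H2A gene, had 3.18, 3.07 and 3.54 CPM with hairpin 1 and 2.97, 2.17 and 1.63 CPM with hairpin 2 in MV411, against 9.81, 8.26 and 12.9 CPM with scramble, and its log2 fold change with hairpin 2 was -2.22 ± 0.25 (SE; adjusted p = 0.000366). HIST2H2AB fell by 1.94 ± 0.23 (SE; adjusted p = 0.00235) with hairpin 1 in MV411. HIST2H2AA3, named for its high mean CPM, fell by 1.73 ± 0.43 (SE; adjusted p = 0.0392) in MOLM13 with hairpin 1, a call lost with the replicate number as a block (-1.64, adjusted p = 0.0609), and missed the threshold with hairpin 2 (-1.47, adjusted p = 0.0535). In SKNO1, 2 of 15 were lower with hairpin 2 (median -0.55). One was HIST1H2AI, with 107, 139.6 and 163 CPM with hairpin 1 and 61.3, 70.2 and 78.4 CPM with hairpin 2, against 91.03, 199 and 107 CPM with scramble (-0.94 ± 0.28, SE, adjusted p = 0.0452, with hairpin 2). The other was HIST1H2AG, described below with HIST1H2BJ.

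Class H2B had the most members. In MOLM13, 14 of 17 tested H2B genes were lower with each hairpin (medians -1.85 and -1.76), and in MV411 17 and 18 of 20 (-2.16 and -2.24). HIST1H2BL had 13.2, 17.8 and 19.2 CPM with hairpin 1 and 23.9, 21.8 and 12.8 CPM with hairpin 2 in MOLM13, against 43.7, 96.01 and 135 CPM with scramble, and fell by 2.46 ± 0.39 (SE; adjusted p = 0.00611) with hairpin 1. In MV411 it had 11.95, 7.09 and 7.95 CPM with hairpin 1 and 12.9, 5.41 and 10.4 CPM with hairpin 2, against 102, 37.4 and 85.04 CPM with scramble. No hairpin library overlapped a scramble library in either line, and the MV411 log2 fold changes were -3.07 ± 0.40 (SE; adjusted p = 0.00288) and -2.99 ± 0.40 (SE; adjusted p = 0.000775). HIST1H2BN fell by 2.32 ± 0.28 (SE; adjusted p = 0.000466) with hairpin 2 in MV411, and HIST2H2BF fell by 2.18 (0.00146). In SKNO1, 2 of 18 were lower with hairpin 2 (median -0.69): HIST1H2BJ, and HIST1H2BL with 68.1, 77.7 and 86.7 CPM with hairpin 1 and 39.3, 37.6 and 46.3 CPM with hairpin 2, against 57.1, 113 and 66.2 CPM with scramble (-0.96 ± 0.24, SE, adjusted p = 0.0252, with hairpin 2).

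H3 carries the arginines that CARM1 methylates, and the genes here encode its replication-dependent forms. In MOLM13, 6 and 5 of 11 tested H3 genes were lower with hairpin 1 and hairpin 2 (medians -2.01 and -1.77), and in MV411 10 and 11 of 13 (-2.18 and -2.23). The 5 with MOLM13 hairpin 2 include HIST2H3A, whose reads were split with its near-identical copy HIST2H3C. HIST1H3B had 20.98, 43.3 and 31.1 CPM with hairpin 1 and 51.4, 74.6 and 15.5 CPM with hairpin 2 in MOLM13, against 97.5, 243 and 290.5 CPM with scramble, and fell by 2.73 ± 0.57 (SE; adjusted p = 0.0202) with hairpin 1 and fell by 2.12 (0.0401) with hairpin 2. The MV411 libraries had 21.1, 16.1 and 18.3 CPM with hairpin 1 and 34.7, 12.8 and 27.8 CPM with hairpin 2, against 198, 67.3 and 173 CPM with scramble. The groups did not overlap, and hairpin 1 gave -3.00 ± 0.42 (SE; adjusted p = 0.00374). HIST1H3H, named for its high mean CPM, fell by 2.05 ± 0.47 (SE; adjusted p = 0.0303) in MOLM13 and fell by 2.18 (0.00714) in MV411 with hairpin 1. HIST1H3J had 11.1, 19.3 and 23.2 CPM with hairpin 1 and 27.9, 25.3 and 11.8 CPM with hairpin 2 in MOLM13, against 38.6, 97.7 and 98.7 CPM with scramble (-2.14 ± 0.43, SE, adjusted p = 0.018, with hairpin 1). HIST1H3I had 14.6, 12.2 and 13.3 CPM with hairpin 1 and 17.1, 10.4 and 12.3 CPM with hairpin 2 in MV411, against 56.1, 31.5 and 49.2 CPM with scramble (-1.81 ± 0.24, SE, adjusted p = 0.000702, with hairpin 2). In SKNO1, 4 of 13 were lower with hairpin 2 (median -0.80): HIST1H3B (-1.02), HIST1H3C (-0.95), HIST1H3F (-1.02) and HIST1H3G (-1.13). HIST1H3F had 30.3, 44.1 and 48.02 CPM with hairpin 1 and 18.7, 19.4 and 21.8 CPM with hairpin 2 there, against 28.99, 57.3 and 33.5 CPM with scramble.

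H4 forms the tetramer with H3, and its genes are spread over the clusters. In MOLM13, 9 of 13 tested H4 genes were lower with each hairpin (medians -1.77 and -1.61), and in MV411 9 and 10 of 14 (-1.70 and -1.62). HIST1H4I had 10.6, 16.1 and 9.86 CPM with hairpin 1 and 15.8, 29.2 and 8.25 CPM with hairpin 2 in MOLM13, against 33.3, 103 and 125 CPM with scramble. The MV411 libraries had 6.48, 6.44 and 6.11 CPM with hairpin 1 and 19.2, 6.36 and 5.59 CPM with hairpin 2, against 76.6, 43.3 and 87.2 CPM with scramble, and it fell by 3.46 ± 0.45 (SE; adjusted p = 0.00277) and fell by 2.76 (0.00164). Among the H4 genes tested it had the largest fall in MV411 with either hairpin. HIST1H4L and HIST1H4D had the smallest p among H4 genes in MOLM13: HIST1H4L fell by 2.23 ± 0.31 (SE; adjusted p = 0.00378) with hairpin 1, at 4.58, 7.80 and 6.71 CPM, against 21.2, 32.5 and 35.9 CPM with scramble, and HIST1H4D fell by 1.94 ± 0.32 (SE; adjusted p = 0.00739) with hairpin 2. HIST1H4J, named for its high mean CPM, fell by 1.77 ± 0.37 (SE; adjusted p = 0.021) in MOLM13 and fell by 1.43 (0.0159) in MV411 with hairpin 1, and did not pass in SKNO1 (0.39 and -0.15); its counts held fractions of shared reads in all 27 libraries. In SKNO1, 3 of 14 were lower with hairpin 2 (median -0.61): HIST1H4D (-1.16), HIST1H4H (-1.03) and HIST1H4I (-0.81). HIST1H4D had 56.2, 71.7 and 69.8 CPM with hairpin 1 and 33.5, 33.9 and 33.2 CPM with hairpin 2 there, against 47.5, 121 and 52.02 CPM with scramble. HIST1H4C had 188, 228 and 219.5 CPM with hairpin 1 and 151, 155 and 132 CPM with hairpin 2 in SKNO1, against 186, 375 and 183 CPM with scramble, and did not pass (-0.79, adjusted p = 0.0666, with hairpin 2).

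The share of each class among the histone counts was also compared in MV411. H3 genes made up 11.5% to 11.8% of the members' summed counts with hairpin 1 and 11.2% to 14.3% with hairpin 2, against 15.3% to 17.6% with scramble. H4 genes made up 24.5% to 25.6% with hairpin 1 and 26.1% to 27.9% with hairpin 2, against 20.1% to 20.8% with scramble. Neither class's hairpin range overlapped its scramble range there. The H1 share did not overlap with hairpin 1 (15.2% to 17.1%, against 13.5% to 14.9% with scramble). The H2B share did not overlap with hairpin 2 (20.6% to 23.2%, against 23.4% to 28.45% with scramble). Each of these shares overlapped its scramble range with the other hairpin, and the H2A share did with both. None of these shares was tested. In MOLM13 the H3 share was 10.1% to 12.9% with hairpin 1, under the 14.3% to 17.1% of scramble, but 9.04% to 16.4% with hairpin 2, which overlapped it. The MOLM13 H4 share was 19.7% to 24.0% over the hairpin libraries, against 19.2% to 21.7% with scramble, and overlapped it with both hairpins. In SKNO1 the H2B share was 22.2% to 24.8% with hairpin 1 and 22.6% to 23.9% with hairpin 2, against 24.9% to 26.4% with scramble, without overlap. That class holds HIST1H2BJ, described below, which averaged 92.2 CPM with hairpin 1 and 49.2 CPM with hairpin 2 there, against 238 CPM with scramble. The part of this 1 gene in the H2B shift was not tested. The SKNO1 H1 share was 15.8% to 18.03% with hairpin 2, against 18.05% to 19.8% with scramble, and the H2A share 20.1% to 23.1%, against 17.3% to 18.6%, while with hairpin 1 both overlapped their scramble ranges.

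HIST1H2BJ, an H2B gene on chromosome 6 (GRCh38 chr6:27125897-27132750, minus strand), was the 1 member called in SKNO1 with both hairpins. It had 83.5, 90.3 and 103 CPM with hairpin 1 and 49.5, 47.4 and 50.7 CPM with hairpin 2 in SKNO1, against 241, 205 and 268 CPM with scramble. The 3 groups did not overlap, and scramble replicate 2, which was high for most members, was the lowest scramble library for this one. The log2 fold changes were -1.38 ± 0.16 (SE; adjusted p = 0.00379) with hairpin 1 and -2.28 ± 0.16 (SE; adjusted p = 2.84e-05) with hairpin 2, against medians of 0.06 and -0.70 over the members. In MOLM13 it had 17.7, 30.6 and 37.03 CPM with hairpin 1 and 38.3, 37.2 and 20.3 CPM with hairpin 2, against 78.3, 175 and 296 CPM with scramble, with log2 fold changes of -2.70 and -2.49. The MV411 libraries had 16.9, 11.6 and 15.9 CPM with hairpin 1 and 34.6, 12.5 and 18.3 CPM with hairpin 2, against 216, 59.5 and 127 CPM with scramble, with log2 fold changes of -3.19 and -2.65. The difference of its knockdown effect between lines did not pass (MOLM13 minus SKNO1 -0.78 ± 0.50, SE, adjusted p = 0.436; MV411 minus SKNO1 -1.08 ± 0.50, SE, 0.337). The H2A gene HIST1H2AG starts 292 bases away on the other strand, head to head. It had 150.5, 200.4 and 213 CPM with hairpin 1 and 93.7, 101 and 112 CPM with hairpin 2 in SKNO1, against 131, 266 and 151 CPM with scramble. Its hairpin 1 libraries lay inside the scramble range (0.02, adjusted p = 0.979), and with hairpin 2 it fell by 0.86 ± 0.25 (SE; adjusted p = 0.0458), a call lost with DESeq2's size factors in the same test. Counts of HIST1H2BJ held fractions of shared reads in 25 libraries, and whether counting used strand is not given in the sources used here.

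**Figure D3:**
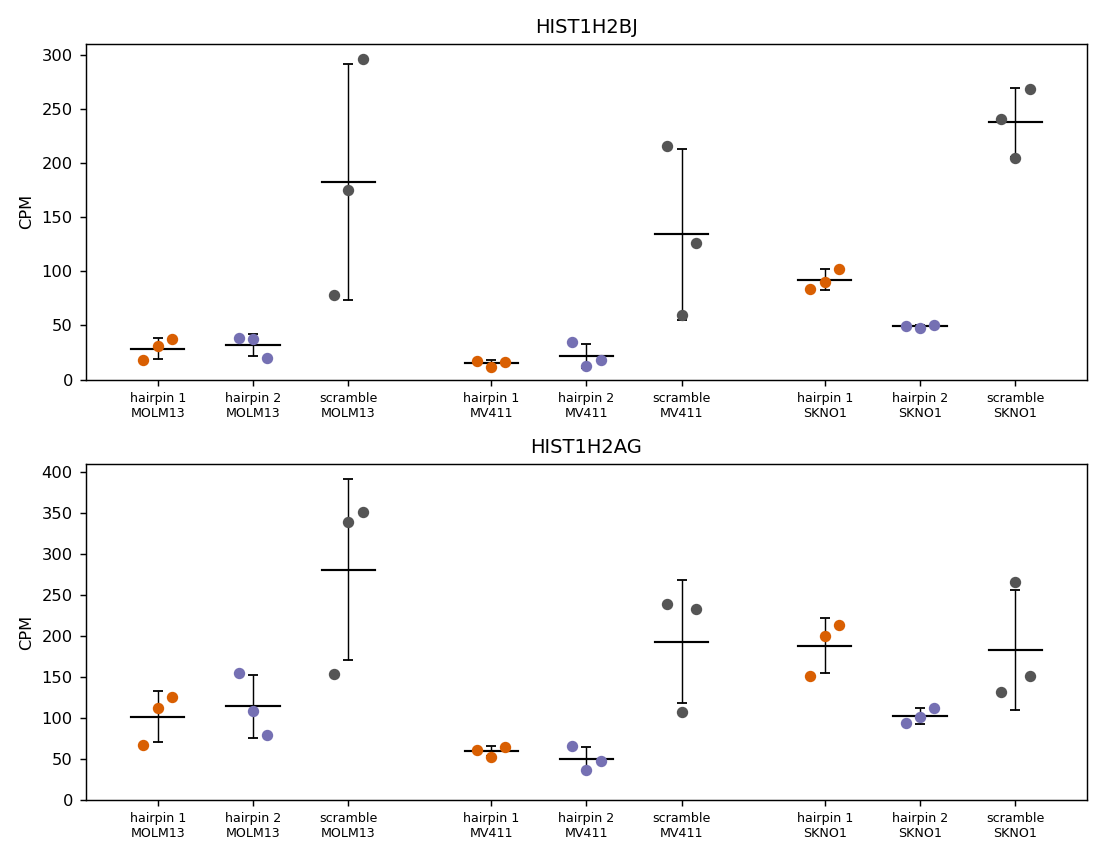
CPM of the head-to-head neighbours HIST1H2BJ and HIST1H2AG in each library, by line and group, with a bar at each group's mean. In SKNO1 the HIST1H2BJ libraries of hairpin 1 (83.5 to 103 CPM) and hairpin 2 (47.4 to 50.7 CPM) lay under all scramble libraries (205 to 268 CPM), while HIST1H2AG with hairpin 1 lay inside its scramble range.

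A few members passed with few or none of the hairpins. HIST4H4, the H4 gene on chromosome 12, had 21.4, 20.2 and 27.1 CPM with hairpin 1 and 22.98, 15.2 and 24.8 CPM with hairpin 2 in MOLM13, against 18.2, 24.7 and 24.8 CPM with scramble. In MV411 it had 22.9, 19.8 and 21.6 CPM with hairpin 1 and 22.3, 14.3 and 15.4 CPM with hairpin 2, against 27.9, 18.3 and 26.1 CPM with scramble. The groups overlapped in both lines, and no hairpin passed (log2 fold changes 0.01 and -0.09 in MOLM13 cells, -0.18 and -0.50 in MV411, 0.16 and 0.10 in SKNO1), although with the replicate number as a block hairpin 2 passed in MV411 (-0.50, adjusted p = 0.0262). HIST1H3E, an H3 gene in the main cluster, had 3.55, 4.53 and 4.08 CPM with hairpin 1 and 3.56, 2.12 and 4.17 CPM with hairpin 2 in MOLM13, against 4.51, 3.62 and 3.09 CPM with scramble, and its MV411 log2 fold changes were 0.14 ± 0.26 (SE; adjusted p = 0.845) and 0.34 ± 0.26 (SE; adjusted p = 0.434). HIST1H2AC, an H2A gene, had 128, 155 and 163 CPM with hairpin 1 and 144, 180.1 and 147 CPM with hairpin 2 in SKNO1, against 74.3, 132 and 92.8 CPM with scramble. The hairpin 2 libraries were all over the scramble libraries, but neither hairpin passed (0.56, adjusted p = 0.212, and 0.64, 0.0769). In MV411 it fell by 1.02 with hairpin 2 (0.0124). In MOLM13 it did not pass (-0.72 and -0.71). Its head-to-head neighbour HIST1H2BC, which starts 219 bases away, fell by 1.50 ± 0.28 (SE; adjusted p = 0.0123) in MOLM13 with hairpin 1.

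Some histone genes also make polyadenylated transcripts, which are known from differentiated and non-dividing cells. A list of 6 such members (HIST1H1C, HIST1H2AC, HIST1H2BC, HIST1H2BD, HIST1H2BK and HIST2H2BE) had 4 lower with each hairpin in MOLM13 (medians -1.49 and -1.49), and 5 and 6 lower in MV411 (-1.70 and -1.74). In SKNO1 the H1 gene HIST1H1C was lower with hairpin 2, and the median was -0.65. The H2B genes of the list fell in MOLM13 with hairpin 1: HIST1H2BC (log2 fold change -1.50), HIST1H2BD (-1.82), HIST1H2BK (-1.49) and HIST2H2BE (-1.48). HIST2H2BE in SKNO1 had 96.4, 86.5 and 113 CPM with hairpin 1 and 70.3, 82.004 and 86.96 CPM with hairpin 2, against 69.1, 95.8 and 74.5 CPM with scramble, so the groups overlapped (0.29 and -0.02). Of the 4 members known as testis-specific, HIST1H2AA had no count in any library, and HIST1H2BA and HIST3H3 reached at most 0.158 CPM. HIST1H1T, the testis H1 gene, reached 2.63 CPM in MV411, where it was tested and did not pass (-1.05 and -0.73).

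Outside the main cluster, in MOLM13 6 and 5 of 13 tested HIST2 genes were lower with hairpin 1 and hairpin 2 (medians -1.72 and -1.46), beside 35 and 32 of 46 HIST1 genes (-1.93 and -1.72). In MV411 the counts were 9 and 10 of 14 HIST2 genes, beside 44 and 48 of 52 HIST1 genes. In SKNO1 all 15 members lower with hairpin 2 were HIST1 genes, of 51 tested. None of 13 HIST2 genes passed there by edgeR's test (5 lower at an unadjusted p under 0.05, 1 by DESeq2), with a median of -0.02; the difference between clusters was not tested. Several HIST2 genes are near-identical copies whose reads were split by estimation, so their sums are given. HIST2H3A and HIST2H3C together had 49.2 ± 21.6 CPM with hairpin 1 and 67.3 ± 40.6 CPM with hairpin 2 in MOLM13, against 292 ± 144 CPM with scramble (SD, n = 3 each). In MV411 they had 31.6 ± 5.25 and 29.2 ± 16.4 CPM, against 204 ± 62.4 CPM, and in SKNO1 159 ± 62.5 and 80.9 ± 21.2 CPM, against 112 ± 27.1 CPM. The share given to HIST2H3A ran between 0% and 54.6% of the pair by library, so no fold is given for it alone. It is still counted above among the members lower with hairpin 2 in MOLM13, where it was given 0% to 0.108% of the pair. HIST2H4A and HIST2H4B together had 81.7 and 94.2 CPM with hairpin 1 and hairpin 2 in MOLM13, against 299 CPM, and 73.5 and 58.7 CPM in MV411, against 290.3 CPM. In SKNO1 they had 239 and 154 CPM, against 210.0 CPM. HIST2H2AA3 and HIST2H2AA4 together had 134 and 158 CPM in MOLM13, against 446 CPM, 119 and 125 CPM in MV411, against 445 CPM, and 284 and 182 CPM in SKNO1, against 213 CPM. HIST2H2AC, HIST2H3D, HIST2H2AB, HIST2H2BE and HIST2H2BF fell in MV411 with both hairpins. HIST2H2BC and HIST2H2BD, at no more than 2.34 CPM, passed with no hairpin in any line.

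Members read as whole counts gave the same direction as members with shared reads. With hairpin 1, 11 of 20 tested members whose counts were whole in every library were lower in MOLM13 and 17 of 25 in MV411 (medians -1.69 and -1.78), beside 31 of 42 and 37 of 44 of those with fractions (-1.90 and -1.94). With hairpin 2 the counts were 12 of 20 and 19 of 25 (-1.60 and -1.70), beside 25 of 42 and 40 of 44 (-1.70 and -2.23). HIST1H1B, HIST1H2BB, HIST1H3C, HIST1H4F and HIST1H3G had whole counts throughout.

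The H2A gene HIST3H2A and the H2B gene HIST3H2BB, the HIST3 pair on chromosome 1, start 234 bases apart on opposite strands. HIST3H2BB had 6.71, 5.53 and 6.33 CPM with hairpin 1 and 8.70, 6.32 and 9.63 CPM with hairpin 2 in MV411, against 45.1, 18.9 and 37.5 CPM with scramble, with log2 fold changes of -2.46 and -2.06 (adjusted p = 0.00235 and 0.00093). HIST3H2A had 13.98, 13 and 15.5 CPM with hairpin 1 and 15.8, 13.3 and 8.91 CPM with hairpin 2 there, against 16.7, 20.1 and 21.3 CPM with scramble. All its hairpin libraries were under all scramble libraries, by less, and it did not pass (-0.46, adjusted p = 0.234, and -0.63, 0.0543), although hairpin 2 did with the replicate number as a block (-0.65, 0.0428). In MOLM13 HIST3H2BB had 0.660, 1.34 and 2.20 CPM with hairpin 1 and 1.87, 2.70 and 1.10 CPM with hairpin 2, against 2.26, 8.40 and 14.6 CPM with scramble. HIST3H2A had 2.31, 5.92 and 5.65 CPM and 5.78, 3.59 and 2.83 CPM there, against 2.40, 6.69 and 7.46 CPM, with overlapping groups. The difference between these neighbours was not tested.

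The hairpins were set against each other within each line. In MOLM13 no member differed between hairpin 2 and hairpin 1 (edgeR; 1 at an unadjusted p under 0.05; 0 by DESeq2), where 0% of all genes did. In MV411 1 did, where 5.62% of all genes were lower: the H4 copy HIST2H4B was lower with hairpin 2, at 4.55, 3.56 and 6.71 CPM, against 14.7, 10.3 and 10.8 CPM with hairpin 1 (-1.28 ± 0.24, SE, adjusted p = 0.00636), a gene whose reads are shared with HIST2H4A. That count was 2 without MV411 hairpin 2 replicate 1, and the MOLM13 count was 1 without hairpin 1 replicate 3. In SKNO1 15 members were lower with hairpin 2 than with hairpin 1, where 5% of all genes were, with a median of -0.72. The H1 genes HIST1H1D and HIST1H1E and the H2B gene HIST1H2BJ had the smallest p, with log2 fold changes of -0.99 ± 0.22 (SE; adjusted p = 0.0129), -1.05 ± 0.23 (SE; adjusted p = 0.0148) and -0.91 ± 0.16 (SE; adjusted p = 0.00376). The SKNO1 count was 6 and 2 without hairpin 1 replicates 2 and 3, and 2, 1 and 3 without hairpin 2 replicates 1, 2 and 3. By DESeq2 it was 25, and with no filter on low counts 45, while the MV411 count was 2 by DESeq2 and 9 with no filter. No member was higher with hairpin 2 in any line (0 by edgeR at an unadjusted p under 0.05 and 0 by DESeq2), where 0%, 5.86% and 4.52% of all genes were in MOLM13, MV411 and SKNO1. CARM1 itself was lower in every hairpin 2 library than in every hairpin 1 library in both SKNO1 and MV411, as given above. The part of CARM1 in these counts was not tested.

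Whether the knockdown effect differed between lines was tested in 1 fit of all 27 libraries. The effect was lower in MOLM13 than in SKNO1 for 19 of 69 members, where 2.19% of all genes were, with a median difference of -1.52. It was lower in MV411 than in SKNO1 for 30, where 1.15% were, with a median difference of -1.74. With scaling by library size alone the count for MOLM13 against SKNO1 was 8, by DESeq2 37, and with no filter on low counts the counts were 52 and 56. No member's effect was higher in MOLM13 or MV411 than in SKNO1 (0 by edgeR at an unadjusted p under 0.05 and 0 by DESeq2), where 1.12% and 0.292% of all genes were. Between MOLM13 and MV411 no member passed (edgeR; 1, HIST1H1T, at an unadjusted p under 0.05; 0 by DESeq2), where 0.0047% of all genes were lower and 0% higher. The H2B gene HIST2H2BE, which fell in MOLM13 and MV411 and not in SKNO1, differed by -1.61 ± 0.36 in MOLM13 against SKNO1 (SE; adjusted p = 0.0175) and by -1.95 ± 0.36 in MV411 against SKNO1 (0.00684). HIST2H2BF and HIST1H4J differed by -1.80 ± 0.42 and -1.82 ± 0.43 in MOLM13 against SKNO1 (0.0219 and 0.0219), and HIST1H2BL and HIST1H2BE by -2.53 ± 0.46 and -2.23 ± 0.44 in MV411 against SKNO1 (0.00622 and 0.0115). The count for MOLM13 against SKNO1 was 40, 0 and 0 without MOLM13 scramble replicates 1, 2 and 3, 0, 37 and 0 without SKNO1 scramble replicates 1, 2 and 3, 6 without SKNO1 hairpin 1 replicate 3, and 11 and 8 without SKNO1 hairpin 2 replicates 2 and 3. The count for MV411 against SKNO1 was 4 and 3 without MV411 scramble replicates 1 and 3, 13 and 19 without MV411 hairpin 1 replicates 2 and 3, 2 and 3 without SKNO1 scramble replicates 1 and 3, 11 without SKNO1 hairpin 1 replicate 3, and 12 without SKNO1 hairpin 2 replicate 3. Averaged over the 3 lines, 58 of 69 members were lower with the knockdown, where 12.1% of all genes were lower, with a median of -1.35. None was higher (0 at an unadjusted p under 0.05, 0 by DESeq2), where 11.2% of all genes were.

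Some members were nearly absent from 1 line whatever the hairpin. They were picked after their values were seen, as members under 1 CPM in all 9 libraries of a line and over 5 CPM on average in the scramble libraries of another. In MOLM13 the H4 gene HIST1H4F had 3 counts over 9 libraries, HIST1H2BI 10, HIST1H3C 16, HIST1H2BB 24 and HIST1H3G 60. With scramble, HIST1H3C averaged 110.4 ± 46.6 CPM in SKNO1 and 93.2 ± 40.1 CPM in MV411 (SD, n = 3 each), HIST1H2BB 52.0 ± 34.2 and 41.2 ± 29.5 CPM, and HIST1H4F 23.6 ± 7.18 and 19.6 ± 8.60 CPM. HIST1H3G averaged 39.2 ± 20.1 CPM in SKNO1 and 120.6 ± 56.3 CPM in MV411, and HIST1H2BI 15.6 ± 9.20 and 45.5 ± 22.7 CPM. HIST1H2BB and HIST1H3C are head-to-head neighbours, with starts 1754 bases apart, and so are HIST1H3G and HIST1H2BI, at 1161 bases. The promoters of HIST1H2BB, HIST1H3C and HIST1H4F are printed above, from the reference genome and not from MOLM13 DNA. In SKNO1 the HIST3 pair was nearly absent, with 1 count of HIST3H2A and 2 of HIST3H2BB over 9 libraries. With scramble HIST3H2A averaged 5.52 ± 2.73 CPM in MOLM13 and 19.4 ± 2.37 CPM in MV411, and HIST3H2BB 8.43 ± 6.18 and 33.9 ± 13.5 CPM. The pseudogene HIST2H2BB was near 0 in SKNO1 and MOLM13 and averaged 5.37 ± 1.83 CPM in MV411 scramble libraries. In MV411 HIST1H2BB, HIST1H3C, HIST1H4F, HIST1H3G and HIST1H2BI each fell with both hairpins. HIST1H2BB had 7.24, 3.88 and 5.23 CPM with hairpin 1 and 9.27, 3.04 and 6.67 CPM with hairpin 2 there, against 72.5, 13.9 and 37.3 CPM with scramble (-2.93 ± 0.55, SE, adjusted p = 0.011, with hairpin 1), and HIST1H3G had log2 fold changes of -3.37 (adjusted p = 0.0038) and -2.60 (0.00314).

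**Figure D4:**
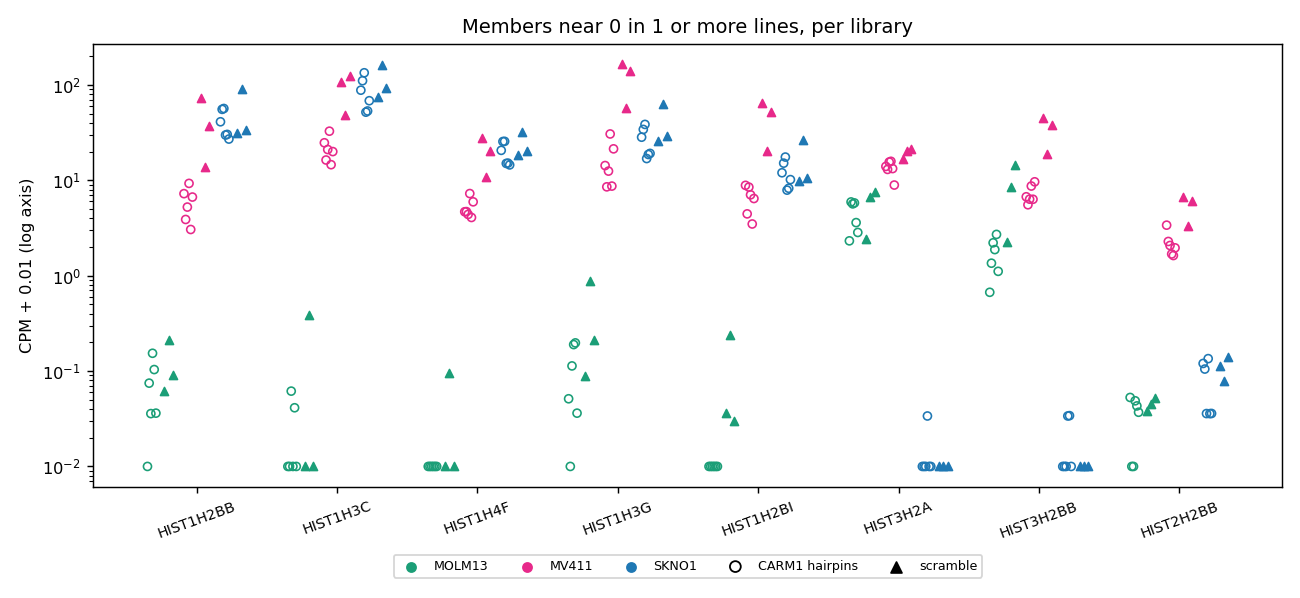
CPM + 0.01 on a log axis of the members near 0 in 1 or more lines, one point per library, coloured by line. HIST1H2BB, HIST1H3C, HIST1H4F, HIST1H3G and HIST1H2BI stayed under 1 CPM in all 9 MOLM13 libraries, and HIST3H2A and HIST3H2BB in all 9 SKNO1 libraries.

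The scramble libraries of the lines were compared over all members, those near 0 in a line included. Between scramble libraries, 27 of 69 members were lower and 6 higher in SKNO1 than in MOLM13, where 26.6% and 25.8% of all genes were. Against MV411, 16 were lower and 3 higher in SKNO1, where 27.1% and 25.5% of all genes were. In MOLM13 against MV411, 10 were lower and 4 higher, where 14.3% and 13.9% were, and 6 of the 10 were HIST1H2BB, HIST1H3C, HIST1H4F, HIST1H3G, HIST1H2BI and HIST2H2BB. Apart from the 27 lower in SKNO1 than in MOLM13, these shares of the members were near or under those of all genes. With scaling by library size alone, the SKNO1 to MOLM13 comparison gave 10 lower and 13 higher, so its direction rests on the scaling. Its count of 33 was 20 without SKNO1 scramble replicate 1, the SKNO1 to MV411 count of 19 was 12 without MV411 scramble replicate 3, and the MOLM13 to MV411 count of 14 was 22 without MOLM13 scramble replicate 1. The H2B gene HIST1H2BE had 23.8, 49.6 and 28.2 CPM in SKNO1, 4.53, 9.03 and 14.2 CPM in MOLM13 and 197, 58.2 and 134 CPM in MV411, and MOLM13 was -3.80 ± 0.40 against MV411 on the log2 scale (SE; adjusted p = 4.19e-08). The H4 gene HIST1H4L had 34.2, 82.2 and 40.4 CPM in SKNO1, 21.2, 32.5 and 35.9 CPM in MOLM13 and 19.4, 10.2 and 23.8 CPM in MV411, and SKNO1 was higher than MV411 by 1.55 ± 0.35 (0.000608). HIST1H3E had 0.504, 0.655 and 0.646 CPM in SKNO1 and 4.51, 3.62 and 3.09 CPM in MOLM13 (-2.63 ± 0.30, adjusted p = 7.21e-08), and was higher in MOLM13 than in MV411 by 0.93 ± 0.28 (0.0138), as were HIST1H3D (1.35 ± 0.44, 0.023) and HIST1H4K (1.36 ± 0.46, 0.0284). Counts of HIST1H3D and HIST1H4K held fractions of shared reads in all 27 libraries. HIST1H4K was also low, at means of 2.155 CPM in MOLM13 and 0.846 CPM in MV411. HIST1H4C and HIST2H4B were higher in SKNO1 than in MV411 by 0.89 ± 0.35 and 1.04 ± 0.37 (0.0349 and 0.0201). HIST2H4B shares its reads with HIST2H4A, and the pair was not higher in SKNO1. With scramble the pair summed to 210.0 ± 55.6 CPM in SKNO1 and 290.3 ± 122.9 CPM in MV411 (SD, n = 3 each).

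Genes that make, process and handle histone mRNA and protein had medians nearer 0 than the histone genes, a difference that was not tested. Of 18 tested genes of histone mRNA processing and transcription, 5 were lower with the knockdown in MOLM13, 3 in MV411 and 1 in SKNO1 (medians -0.38, -0.24 and -0.20). SLBP, which binds the stem-loop, averaged 23.3 ± 2.10 CPM with hairpin 1 and 20.7 ± 5.71 CPM with hairpin 2 in MOLM13, against 42.5 ± 2.00 CPM with scramble (SD, n = 3 each). Its knockdown log2 fold change was -0.95 ± 0.15 (SE; adjusted p = 0.00384) there, -0.82 ± 0.18 (SE; adjusted p = 0.013) in MV411 and -0.34 ± 0.18 (SE; adjusted p = 0.312) in SKNO1, where it did not pass. CASP8AP2, a component of histone locus bodies, averaged 26.2 ± 0.256 CPM with hairpin 1 and 27.5 ± 0.990 CPM with hairpin 2 in MOLM13, against 48.6 ± 5.40 CPM with scramble, and fell by 0.85 in MOLM13 (0.00136) and fell by 0.98 in MV411 (0.00122). LSM11, a subunit of the U7 ribonucleoprotein, averaged 15.8 ± 3.59 CPM with hairpin 1 and 7.43 ± 0.977 CPM with hairpin 2 in SKNO1, against 21.1 ± 1.95 CPM with scramble, and fell by 0.97 there (0.012), fell by 0.96 in MV411 (0.00622) and fell by 0.87 in MOLM13 (0.0444), of which the calls in SKNO1 and MV411 were lost with both hairpins in 1 group (adjusted p = 0.204 and 0.169). NPAT did not pass in any line (-0.17, -0.18 and -0.42 in MOLM13, MV411 and SKNO1).

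Of 18 histone chaperones, which carry histones to DNA, 11 were lower with the knockdown in MOLM13, 8 in MV411 and 1 in SKNO1 (medians -0.66, -0.41 and -0.30). CHAF1B, a subunit of the assembly factor CAF-1, averaged 1.05 ± 0.202 CPM with hairpin 1 and 0.986 ± 0.205 CPM with hairpin 2 in MV411, against 10.2 ± 3.74 CPM with scramble (SD, n = 3 each). It fell by 3.33 there (9.43e-05), fell by 2.35 in MOLM13 (0.000424) and fell by 1.09 in SKNO1 (0.012), a call lost with both hairpins in 1 group (adjusted p = 0.0858). CHAF1A, the large CAF-1 subunit, fell in MV411 (-1.63) and MOLM13 (-1.35), as did the H3-H4 chaperones ASF1B (-1.91) and NASP (-1.10) in MOLM13. With SKNO1 hairpin 2 alone 4 were lower, CHAF1A among them (-0.81). Histone variants outside the HIST1 to HIST4 genes were listed as replication-independent, a label that was not tested here. Of these, 3 of 10 were lower in MOLM13, 4 of 11 in MV411 and none of 11 in SKNO1 (by edgeR, with 1 at an unadjusted p under 0.05 and 0 by DESeq2). CENPA, the centromeric H3 variant, averaged 1.33 ± 0.461 CPM with hairpin 1 and 0.977 ± 0.173 CPM with hairpin 2 in MOLM13, against 5.99 ± 1.52 CPM with scramble, and fell in MOLM13 (-2.39) and MV411 (-2.37). H2AFZ, which encodes H2A.Z, fell in both (-1.04 and -1.07), as did the related H2AFV (-0.94 and -1.02), the MV411 call being lost with both hairpins in 1 group (adjusted p = 0.0631). H2AFX, the H2A variant phosphorylated at DNA breaks, fell by 1.39 in MV411. H2AFY, which encodes macroH2A, fell by 0.90 with SKNO1 hairpin 2. H3F3B, which encodes the H3 variant H3.3, did not pass with the knockdown in any line (-0.30, -0.23 and 0.10).

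**Figure D5:**
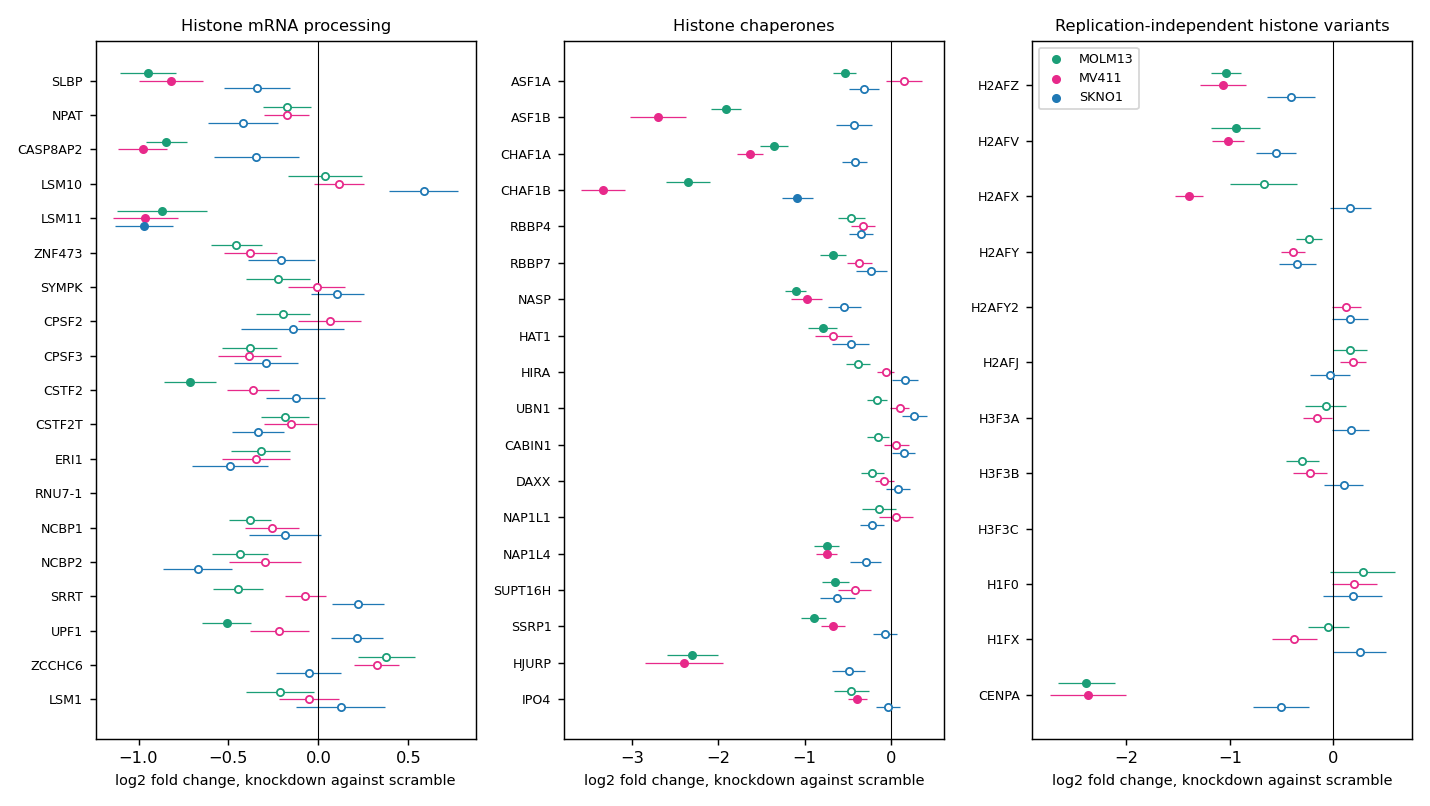
Log2 fold change of the knockdown against scramble, with bars of 1 SE, for genes of histone mRNA processing, histone chaperones and replication-independent histone variants in the 3 lines, with filled points where the test passed. CHAF1B was lowest among the chaperones, at -3.33 in MV411, -2.35 in MOLM13 and -1.09 in SKNO1, and NPAT stayed near 0 in MOLM13 and MV411.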

How the data were processed

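RNA was measured in 27 libraries, 3 in each of 9 groups, from total RNA depleted of ribosomal RNA, on day 3 after transduction, per the labels' protocols. The authors deposited expected counts per gene, which need not be whole. Reads were aligned with STAR 2.5.3 and quantified with RSEM on GRCh38.p7, per the submitters' processing notes. Whether counting used strand is not given in the sources used here. Of the non-zero values of the whole table, 30.39% were not whole (tolerance 1e-09), since RSEM divides reads that match several genes. Every column of the table was matched to a sample by its name.

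Expected counts were rounded and tested with edgeR 4.0.16 (R 4.3.3), with TMM scaling, filterByExpr (minimum count 10, minimum total 15) and the quasi-likelihood test. Each line was fitted on its own 9 libraries, comparing each hairpin, and the mean of both hairpins (the knockdown), with scramble. Differences between lines came from 1 fit of all 27 libraries. Replicate numbers were taken to pair the libraries of 2 groups where the deviations of all 3 same-numbered pairs correlated over 0.1, as for scramble with MOLM13 hairpin 1 (0.135 to 0.287), MV411 hairpin 1 (0.14 to 0.192) and MV411 hairpin 2 (0.155 to 0.501); this hint comes from the data and not from the labels. A gene was called at an adjusted p (Benjamini-Hochberg over all genes tested) under 0.05. CPM values use TMM-scaled library sizes. The tests ran on 17732 genes in MOLM13, 17816 in MV411, 18430 in SKNO1 and 21262 over the 3 lines, and 62, 69, 65 and 69 of the 76 members passed the filter there. At depths of 25063577 to 53291599 expected counts, 6 members never reached a count of 10. The scripts were tested on simulated data.

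The members and gene lists were chosen with earlier results of these data known. Members were named by rule: the 3 with the highest mean CPM in each class, the lower member with the smallest p in each class and hairpin comparison, all tested HIST2, HIST3 and HIST4 genes, up to 3 in each direction for other comparisons, and those known to make polyadenylated or testis transcripts. From the other lists the rule took up to 2 in each direction. Other genes named were chosen after their values were seen. One gene of the cell type markers is not reported here. Alternatives were DESeq2 1.42.0 and its size factors, library size alone, no filter, a replicate block, pooled hairpins, leaving out each library, and the share of the library total. Gene positions and stem-loops came from GENCODE 29 and promoters from RefSeq. Protein sequences and the genome itself were not used here.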

Additional observations from a re-analysis of the deposited data

Results flagged for a closer look

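The knockdown effect on the histone genes differed between lines by a test of the difference itself in 1 fit of the 27 libraries (edgeR). It was lower in MOLM13 than in SKNO1 for 19 members, where 2.19% of all genes were, and lower in MV411 than in SKNO1 for 30, where 1.15% were. Leaving out 1 library took these counts as low as 0 (without MOLM13 scramble replicate 2 or 3 or SKNO1 scramble replicate 1 or 3) and 2 (without SKNO1 scramble replicate 1), and scaling by library size alone gave 8 for MOLM13 against SKNO1. The differences in log2 fold change were -1.61 for HIST2H2BE, -1.80 for HIST2H2BF and -1.82 for HIST1H4J in MOLM13 against SKNO1. They were -2.53 for HIST1H2BL, -1.95 for HIST2H2BE and -2.23 for HIST1H2BE in MV411 against SKNO1. CARM1 itself fell by 2.37 and 2.59 with hairpin 1 and hairpin 2 in MOLM13, by 1.94 and 2.97 in MV411, and by 1.25 and 2.70 in SKNO1. With hairpin 1 the 15 S-phase genes summed to 31.7% (MOLM13), 27.8% (MV411) and 78.4% (SKNO1) of the scramble mean, and with hairpin 2 to 32.1%, 26.5% and 53.5% for the lines in that order. The part of either in these differences was not tested.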

How the results depend on the processing

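Of the 153 gene results that were called and recomputed, none reversed direction under an alternative that could be fitted. Most were picked for a small p or a high mean CPM in these same data, so they do not stand for all members. Of 1811 alternative values, 1618 stayed on the same side of the threshold and 193 lost the call, 185 of them on leaving out a library. Pooling the hairpins as 1 group lost 4, the replicate block 3 (HIST1H2AG and HIST2H2AA3 with MOLM13 hairpin 1, HIST1H3H with MOLM13 hairpin 2) and DESeq2's size factors 1 (HIST1H2AG with SKNO1 hairpin 2); the cause was not tested. Of 184 values of members that did not pass with a hairpin, 37 changed sign with library size alone, 26 of them with SKNO1 hairpin 1 (HIST4H4 in MOLM13 with hairpin 1 was -0.22 and HIST1H2AG in SKNO1 with hairpin 1 was -0.13), 6 with the replicate block, and 0 with DESeq2 or its size factors. Then 38, 26, 44 and 0 of the 184 passed with library size alone, the block, DESeq2 and its size factors.

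Without the low-count filter, where more genes were tested, the number of members called was 56 lower for MOLM13 hairpin 2, 43 for SKNO1 hairpin 2 and 11 for the SKNO1 knockdown. Between hairpins it was 1 in MOLM13, 9 in MV411 and 45 in SKNO1. Between the effects it was 1 for MOLM13 against MV411, 52 for MOLM13 against SKNO1 and 56 for MV411 against SKNO1. Between scramble libraries it was 31 for MOLM13 against MV411, 50 for SKNO1 against MOLM13 and 39 for SKNO1 against MV411. DESeq2 called 26 lower with SKNO1 hairpin 2 and 2 with the SKNO1 knockdown, 2 and 25 between hairpins in MV411 and SKNO1, and 37 for MOLM13 against SKNO1. Library size alone gave 35 for SKNO1 hairpin 2, 4 for the SKNO1 knockdown and 8 for MOLM13 against SKNO1. As a share of the library total, the histone sum was 22.55% of the scramble mean with MV411 hairpin 1 and 56.66% with SKNO1 hairpin 2.

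Where the replicate numbers pair the samples, the replicate block changed no call printed in the report other than those given there beside it. Elsewhere the samples share only a number: same-numbered libraries correlated between -0.263 and 0.281 for MOLM13 hairpin 2 with scramble, between -0.086 and 0.364 for the SKNO1 hairpins with scramble and between -0.056 and 0.254 for hairpin 2 with hairpin 1. With the block the number called was 28 for SKNO1 hairpin 2, 2 for the SKNO1 knockdown, 3 and 34 between hairpins in MV411 and SKNO1, and 34 for MOLM13 against SKNO1.

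Leaving out a library gave 12 to 52 lower for MOLM13 hairpin 1, 10 to 49 for hairpin 2 and 34 to 56 for the knockdown. For MV411 the ranges were 39 to 60, 53 to 62 and 53 to 61. For SKNO1 they were 0 to 1, 2 to 12 and 1 to 1. Between hairpins they were 0 to 1 in MOLM13, 1 to 2 in MV411 and 1 to 17 in SKNO1. Over the 3 lines the range was 53 to 60. Between effects it was 0 to 0 for MOLM13 against MV411, 0 to 40 for MOLM13 against SKNO1 and 2 to 41 for MV411 against SKNO1. Between scramble libraries it was 10 to 22 for MOLM13 against MV411, 20 to 44 for SKNO1 against MOLM13 and 12 to 28 for SKNO1 against MV411. The histone sum, as a share of the scramble mean, ran between 22.33% and 36.88% with MOLM13 hairpin 1, 24.54% and 40.53% with hairpin 2, 21.73% and 32.12% and 22.05% and 32.59% in MV411, and 92.83% and 131.2% and 55.66% and 78.67% in SKNO1. With 3 libraries a group and these scramble spreads, which members pass in MOLM13 and SKNO1 depends on single libraries.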

Other observations

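The linker histone gene HIST1H1A had between 0.190 and 4.16 CPM over the 27 libraries. Of the members, 6 never reached 10 counts in a library: HIST1H2AA, HIST1H2BA, HIST1H4G, HIST2H2BA, HIST2H3DP1 and HIST3H3.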
